A study of Mus musculus with 6 samples.

Results

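The genes described here are the receptors of the epidermal growth factor (EGF) family and the ligands that bind them. They are 10 rows of a read count table of 31017 gene symbols, taken by name: the receptors Egfr, Erbb2 and Erbb3, and the ligands Areg, Ereg, Hbegf, Tgfa, Btc, Epgn and Nrg1. The list was made with earlier results of these data known. It leaves out Erbb4, Egf, Nrg2, Nrg3 and Nrg4, which were scarce or had 0 counts. Poly(A) RNA was sequenced from 4T1 cells, a mouse mammary carcinoma line. There were 3 libraries labelled FGFR2 KO, from cells nucleofected with Cas9 and guides against the fibroblast growth factor receptor FGFR2, and 3 control libraries, from cells nucleofected with Cas9 and control guides. Both groups were cultured as droplets of collagen I (1.2 or 2.4 mg/ml, which of them not given per library) in medium with 10% serum, and were freed with collagenase before lysis. The labels give neither the exon cut by the guides nor whether the KO cells were a clone or a pool.

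The ErbB receptors are tyrosine kinases that signal as pairs. Egfr binds most EGF family ligands, Erbb2 has no known ligand of its own and acts as the partner of the others, and Erbb3 binds neuregulins but has a weak kinase and so depends on its partner. The ligands are made as membrane proteins and are cut free by ADAM proteases, with Adam17 best known for this, and mammary epithelium uses amphiregulin (Areg) during the growth of its ducts. The comparison shows how transcripts of this second growth factor receptor system differ between cells given FGFR2 guides and control cells in a collagen matrix.

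The libraries held 15531790 to 20447719 counts. Values are counts per 1000000 of the scaled library total (CPM), given as mean ± SD with n = 3 per group, and a change was called at an adjusted p below 0.05 in edgeR's quasi-likelihood test over all 12158 tested genes. Fgfr2 itself had 1896, 1589 and 1928 counts in KO replicates 1 to 3, against 1777, 1948 and 1649 counts in control replicates 1 to 3. KO over control, this gave a log2 fold change of -0.11 ± 0.056 (SE), with an adjusted p of 0.113 in edgeR. The estimate was -0.17 (edgeR adjusted p = 0.0081) without KO replicate 1 and -0.017 (edgeR adjusted p = 0.809) without KO replicate 2, and the adjusted p lay between 0.0081 and 1 over all settings of edgeR, DESeq2 and limma tried. A transcript total cannot test a frameshift. All 9 epithelial markers were expressed, with summed levels of 4400 to 4466 CPM in the KO libraries and 5338 to 5450 CPM in the controls, and 7 of them were called lower and 1 higher in KO, where 27.5% of all tested genes were called lower and 27.1% higher. Of 10 leukocyte markers, 5 (Cd3e, Ms4a1, Adgre1, Ly6g and Nkg7) had 0 counts in all libraries, and the list summed to 15.8 to 17.0 CPM in KO and 23.0 to 25.5 CPM in control libraries. Of the 3 tested, Cd68, a lysosomal protein gene of macrophages, was called lower, at 5.97 ± 0.974 CPM in KO and 13.7 ± 1.46 CPM in control libraries (-1.19 on the log2 scale, edgeR adjusted p = 7.88e-10), and Cd14 and Csf1r did not pass. The 9 fibroblast markers summed to 39.8 to 45.5 CPM in KO and 36.4 to 38.4 CPM in control libraries, nearly all of it Pdgfra, with Col3a1, Lum and Thy1 at 0. Of the 2 tested, Pdgfra did not pass, and Col1a1, a collagen I gene, was called higher with 33, 18 and 21 counts in KO, against 10, 9 and 5 counts in control libraries (1.47 on the log2 scale, edgeR adjusted p = 0.0034). The Col1a1 call was lost without KO replicate 1 (1.14, edgeR adjusted p = 0.0512). Col1a1 passed the filter on low counts in 3 KO libraries and 1 control library, so it was tested because its KO libraries passed. Dcn, too low to test, had 11, 10 and 12 counts in KO and 2, 0 and 0 counts in control libraries, and Pdgfrb, also not tested, had 8, 6 and 12 in KO and 0, 0 and 2 in control libraries. The 5 endothelial markers stayed below 1 CPM in sum. The part of these markers in the values of the family genes was not tested. In bulk RNA, fewer cells of a type and less RNA per cell cannot be told apart.

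Of the 10 family genes, 9 passed the filter on low counts, and Ereg did not. Of the 9, 5 were called higher in KO, 3 lower and 1 (Erbb2) neither way. Among all tested genes 54.6% were called, 27.1% higher and 27.5% lower, so calls in both directions are common in this comparison. The median log2 fold change of the 9 was 0.42, beside -0.0061 over all tested genes. Epgn passed the filter through its KO libraries alone and so had to differ. Of the 8 genes that passed in all 6 libraries, 4 were higher, 3 lower and the median was 0.18. The KO and control libraries did not overlap for 8 of the 9, as for 59.5% of all tested genes. Tested against a minimum fold change of 1.5, Egfr and Epgn kept their calls and the other 6 lost them.

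**Figure D1:**
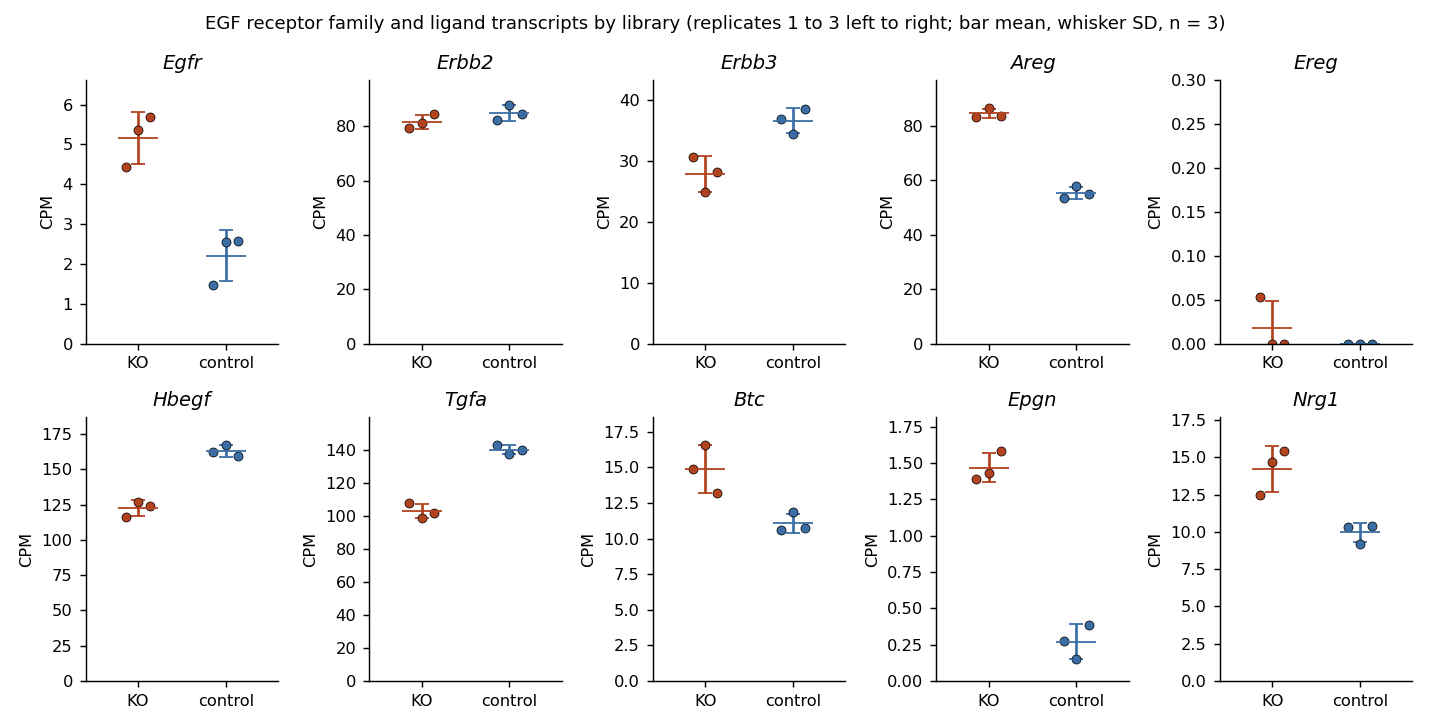
Level of each of the 10 genes in CPM (vertical axes, linear, each from 0) in the 3 KO and 3 control libraries; points are libraries, horizontal bars the mean and whiskers the SD. Egfr, Areg, Btc, Epgn and Nrg1 lie higher in every KO library than in any control library, Erbb3, Hbegf and Tgfa lie lower, the Erbb2 points overlap, and Ereg is at or next to 0.

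The receptors moved apart: Egfr was higher in KO, Erbb3 was lower and Erbb2 did not pass the test. Egfr (chromosome 11, 16752203 to 16918158, plus strand, GENCODE M21 on mm10) had 83, 105 and 115 counts in KO replicates 1 to 3, against 27, 52 and 40 counts in control replicates 1 to 3. These are 4.44, 5.36 and 5.68 CPM in KO and 1.47, 2.56 and 2.58 CPM in control libraries. Every KO library lay above every control library, although all values were low. The mean was 5.16 ± 0.644 CPM in KO and 2.20 ± 0.635 CPM in control, a rise of 1.23 on the log2 scale (SE 0.21, 95% interval 0.80 to 1.66, edgeR adjusted p = 6.63e-06), or 2.35-fold. Egfr and Epgn were the 2 family genes called with a difference of at least 2-fold, as were 6.75% of all tested genes, and both were higher in KO, as were 2.88% of all tested genes. Epgn passed the filter on low counts through its KO libraries alone and so had to differ, which Egfr did not. Egfros, a noncoding gene on the opposite strand inside the Egfr interval, was looked up after these values were seen. It shares 0 exon bases with Egfr and had 195 counts in KO and 117 in control libraries, a rise of 0.64 on the log2 scale (edgeR adjusted p = 0.0306, SE 0.25). Neither the annotation nor the strand setting of the counting is given in the sources used here. Whether any reads from the other strand were counted as Egfr is therefore not known, though the exons share 0 bases.

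Erbb2, the partner receptor of the family (chromosome 11, 98412470 to 98437716, plus strand), stood at 79.4, 81.1 and 84.5 CPM in KO and 82.3, 87.8 and 84.4 CPM in control libraries. The groups overlapped. On the log2 scale KO differed from control by -0.06 (edgeR adjusted p = 0.331, SE 0.048), with a 95% interval of -0.15 to 0.04, so the interval leaves out changes beyond that range. Erbb3, the neuregulin receptor (chromosome 10, 128567523 to 128589652, minus strand), stood at 30.6, 24.8 and 28.2 CPM in KO and 36.8, 34.5 and 38.6 CPM in control libraries. All KO values were below all control values. Its mean was 27.9 ± 2.93 CPM in KO and 36.6 ± 2.07 CPM in control, a fall of 0.39 on the log2 scale (SE 0.074, edgeR adjusted p = 3.07e-05). Erbb4, the remaining receptor of the family and not among the 10, had 0 counts in all 6 libraries.

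Levels of different genes were compared per kilobase of exon. On that scale Erbb2 led the receptors, at 15.7 ± 0.501 CPM per kb in KO and 16.3 ± 0.535 CPM per kb in control libraries. Erbb3 followed at 4.64 ± 0.487 in KO and 6.09 ± 0.345 CPM per kb in control libraries, and Egfr came last at 0.456 ± 0.0569 in KO and 0.195 ± 0.0560 CPM per kb in control libraries. Erbb2, Erbb3 and Egfr kept this order in every library, with gaps wider than the SD of either neighbour. Egfr made up 2.19% of the summed receptor level in KO and 0.859% in control libraries, so it remained the minor receptor transcript in both.

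**Figure D2:**
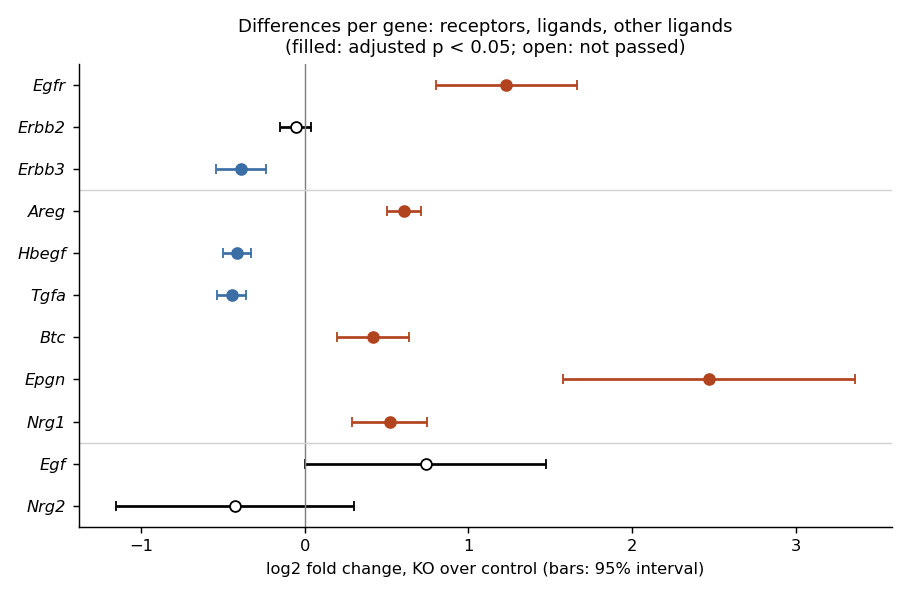
Log2 fold change of each tested gene, KO over control (horizontal axis), with its 95% interval; receptors are at the top, then the ligands among the 10, then Egf and Nrg2. Epgn (2.47) and Egfr (1.23) lie farthest to the right, Hbegf, Tgfa and Erbb3 lie left of 0, and the intervals of Erbb2 and Nrg2 include 0.

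Among the ligands, the 3 expressed members of a gene cluster on chromosome 5, Epgn, Areg and Btc, were all higher in KO. Of these, Epgn passed the filter on low counts through its KO libraries alone, so its direction followed from the filter. Epgn, Ereg, Areg and Btc are the only protein coding genes in the 376 kb between 91027464 and 91402994 in GENCODE M21. The sequence before the gene's start is shown for Epgn, Areg and Btc, and for Egfr, the receptor that rose. The bases are from RefSeq promoters on GRCm38.p6, 5′ to 3′ on the gene's own strand and ending next to the gene's start, with capitals for matches to the 7 short motifs searched.
Areg, chr5:91139349-91139598, plus strand: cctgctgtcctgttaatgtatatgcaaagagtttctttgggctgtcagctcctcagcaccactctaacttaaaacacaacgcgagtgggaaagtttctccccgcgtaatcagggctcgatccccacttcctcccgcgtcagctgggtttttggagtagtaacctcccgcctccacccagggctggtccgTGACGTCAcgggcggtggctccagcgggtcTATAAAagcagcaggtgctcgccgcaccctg
Epgn, chr5:91027267-91027463, plus strand: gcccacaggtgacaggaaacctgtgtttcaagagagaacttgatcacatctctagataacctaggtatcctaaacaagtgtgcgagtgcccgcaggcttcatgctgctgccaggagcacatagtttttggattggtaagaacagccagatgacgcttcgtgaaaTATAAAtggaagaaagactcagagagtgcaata
Btc, chr5:91402995-91403244, minus strand: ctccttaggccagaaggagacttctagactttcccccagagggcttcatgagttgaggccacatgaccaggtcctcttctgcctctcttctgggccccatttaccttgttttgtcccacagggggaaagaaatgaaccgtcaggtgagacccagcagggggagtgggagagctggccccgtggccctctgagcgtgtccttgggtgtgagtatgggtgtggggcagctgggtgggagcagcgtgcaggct
Egfr, chr11:16751953-16752202, plus strand: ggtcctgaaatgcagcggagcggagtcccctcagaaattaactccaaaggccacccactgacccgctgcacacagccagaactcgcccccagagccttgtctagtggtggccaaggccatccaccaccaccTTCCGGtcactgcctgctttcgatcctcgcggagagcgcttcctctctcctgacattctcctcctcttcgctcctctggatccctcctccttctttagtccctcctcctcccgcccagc

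The motifs were searched on both strands in the 250 bases before each RefSeq start. They were the cyclic AMP response element (CRE, TGACGTCA), AP-1 (TGANTCA), TEAD (CATTCC), the hypoxia response core (ACGTG), EGR (GCGNGGGCG), ETS (CCGGAA) and the TATA box (TATAAA). Areg held the full CRE, beginning at base -61, and a TATA box beginning at base -31. A CRE is found in 1.55% of the 32851 promoters in the table and TATAAA in 12.4%. Epgn held TATAAA at base -86, which is 33 bases before the start that GENCODE M21 gives for the gene, and Egfr held an ETS match at base -119 (an ETS match is found in 12.0% of promoters). Btc held none of the 7. Promoter sequences were kept for 6 of the 10 genes. Of those not named above, Tgfa held no match and Erbb2 a TEAD match, found in 12.6% of promoters. These are matches of letters in one window and no measure of binding.

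Areg, the amphiregulin gene (chromosome 5, 91139599 to 91148432, plus strand), stood at 83.4, 86.5 and 83.8 CPM in KO and 53.5, 57.8 and 55.1 CPM in control libraries. The groups were well apart. Its mean was 84.6 ± 1.68 CPM in KO and 55.5 ± 2.16 CPM in control, a rise of 0.61 on the log2 scale (SE 0.051, 95% interval 0.50 to 0.71, edgeR adjusted p = 8.62e-13). Btc, which encodes betacellulin, a ligand of both Egfr and Erbb4 (chromosome 5, 91357261 to 91402994, minus strand), stood at 14.9, 16.5 and 13.2 CPM in KO and 10.6, 11.9 and 10.8 CPM in control libraries. Its rise was 0.42 on the log2 scale (SE 0.11, 95% interval 0.20 to 0.64, edgeR adjusted p = 0.0013). The lowest KO library lay closer to the controls here than for Areg, though still above them.

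Epgn, the gene of the low affinity ligand epigen (chromosome 5, 91027464 to 91035215, plus strand), had 26, 28 and 32 counts in KO and 5, 3 and 6 counts in control libraries. It stood at 1.47 ± 0.100 CPM in KO and 0.269 ± 0.120 CPM in control. The fitted rise was 2.47 on the log2 scale (SE 0.44, 95% interval 1.58 to 3.36, edgeR adjusted p = 1.13e-05), a wide interval that goes with 14 control counts in all. Ereg, the epiregulin gene, lies between Epgn and Areg and had 1 count in KO replicate 1 and 0 counts in the other 5 libraries. A count of 0 allows up to 0.0552 CPM over the control group (3 counts of its 54382031), counting error only. Ereg, the gene next to Areg, was therefore at or near the detection floor in every library and was not tested.

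The cluster's neighbours did not share 1 direction. Mthfd2l, a mitochondrial folate enzyme gene just before Epgn, did not pass the test, at 0.16 on the log2 scale (edgeR adjusted p = 0.0882, SE 0.081). Parm1, the next protein coding gene after Btc, rose by 3.57 on the log2 scale and stood at 5.77 ± 0.818 CPM in KO, against 0.476 ± 0.187 CPM in control (edgeR adjusted p = 1.96e-13). Its control mean lay below the cutoff of the low-count filter (0.524 CPM), so Parm1 was tested because its KO libraries passed. The chemokine genes before Mthfd2l split. Cxcl1 (-1.30), Cxcl2 (-2.53), Cxcl3 (-0.70) and Cxcl5 (-0.92), whose products attract neutrophils, were called lower in KO, and Ppbp (-0.66, edgeR adjusted p = 0.162) did not pass. Cxcl15, another chemokine gene of the group, was called higher, with 115 counts in KO and 1 count in control libraries (edgeR adjusted p = 4.77e-10). The ratio of its counts per library total was 107 (95% Clopper-Pearson interval 18.9 to 4270, counting error only), and Cxcl15 passed the low-count filter through its KO libraries alone. Pf4 had 0 counts in all libraries.

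**Figure D3:**
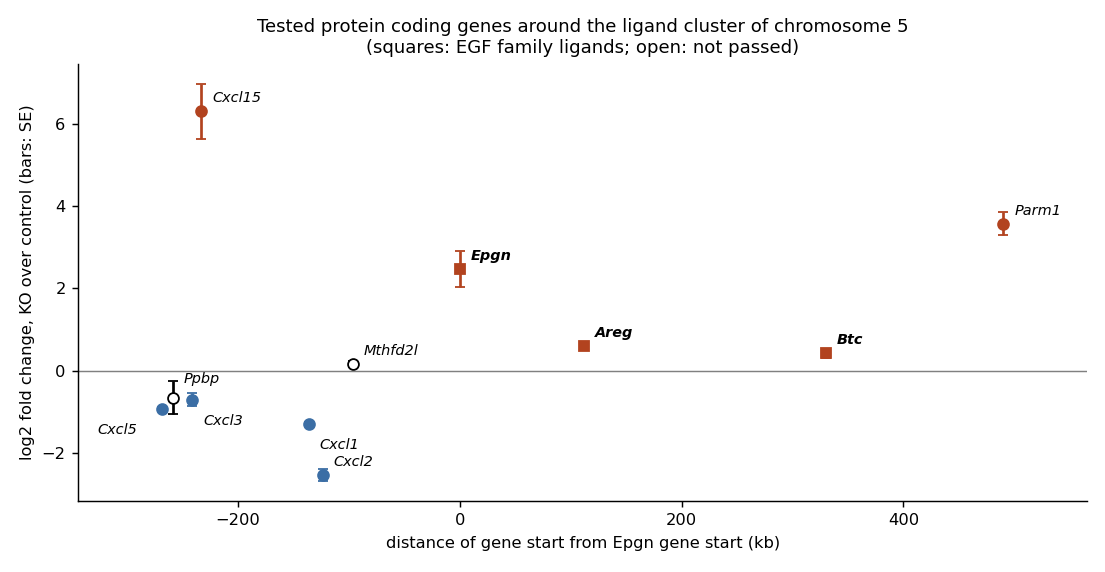
Log2 fold change, KO over control (vertical axis, bars SE), of all tested protein coding genes within 300 kb of the ligand cluster, by the distance of their start from that of Epgn (horizontal axis, kb). Epgn, Areg and Btc (squares) lie above 0 with Parm1 and the chemokine gene Cxcl15, whose fitted 6.29 rests on 1 control count. Mthfd2l and Ppbp did not pass the test (open), and Cxcl1, Cxcl2, Cxcl3 and Cxcl5 lie below 0.

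Hbegf and Tgfa, the ligand genes with the most counts, were lower in KO. Hbegf encodes heparin-binding EGF-like growth factor, which binds Egfr and Erbb4 (chromosome 18, 36504927 to 36515805, minus strand). It stood at 116, 127 and 124 CPM in KO and 163, 167 and 159 CPM in control libraries. KO differed from control by -0.41 on the log2 scale (edgeR adjusted p = 1.85e-10, SE 0.043, 95% interval -0.50 to -0.33), with no overlap between the groups. Tgfa encodes transforming growth factor alpha, a ligand of Egfr (chromosome 6, 86195223 to 86275719, plus strand). It stood at 108, 99.0 and 102 CPM in KO and 143, 138 and 140 CPM in control libraries. It differed by -0.45 on the log2 scale (edgeR adjusted p = 5.23e-11, SE 0.044, 95% interval -0.53 to -0.36), and its groups did not overlap either.

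Nrg1, the neuregulin gene whose product binds Erbb3 and Erbb4 (chromosome 8, minus strand, 18 transcript models), was higher in KO. It stood at 12.5, 14.7 and 15.5 CPM in KO and 10.3, 9.21 and 10.4 CPM in control libraries, and the groups did not overlap. The rise was 0.52 on the log2 scale (SE 0.11, 95% interval 0.29 to 0.74, edgeR adjusted p = 1.72e-04). The Nrg1 ligand and its receptor Erbb3 thus moved in opposite directions. Of Nrg1's exon bases 482 are shared with Gm26578 on the other strand, which had 32 counts in KO and 55 in control libraries, while Nrg1 had 834 in KO and 537 in control libraries.

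Other ligands of the family were scarce. Egf itself had 26, 25 and 23 counts in KO and 19, 13 and 9 counts in control libraries, a log2 fold change of 0.74 (SE 0.36) that did not pass (edgeR adjusted p = 0.0832). It passed without control replicate 1 (1.04, edgeR adjusted p = 0.0492), while its adjusted p over all settings lay between 0.0492 and 1. Nrg2 had 17, 15 and 16 counts in KO and 17, 26 and 17 counts in control libraries (-0.43 on the log2 scale, edgeR adjusted p = 0.323, SE 0.36). So 0 of these 2 tested genes passed in edgeR and in DESeq2, and 1 had an unadjusted edgeR p below 0.05. Nrg3 had 0 counts and Nrg4 had 3 counts in KO and 3 in control libraries.

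Per kilobase of exon, Areg led the ligands, at 69.6 ± 1.39 CPM per kb in KO and 45.7 ± 1.78 CPM per kb in control libraries. Hbegf followed at 25.4 ± 1.14 in KO and 33.7 ± 0.848 CPM per kb in control, and Tgfa at 15.9 ± 0.689 in KO and 21.6 ± 0.426 CPM per kb in control libraries. Btc came next at 3.29 in KO and 2.45 CPM per kb in control libraries, then Nrg1 at 1.37 in KO and 0.963 in control, and Epgn at 0.812 in KO and 0.149 in control. This order held in all 6 libraries, with neighbours further apart than their SDs. Areg made up 59.9% ± 0.204 of the summed ligand level in KO, against 43.7% ± 0.904 in control libraries. The Hbegf share was 21.8% in KO and 32.3% in control libraries, and that of Tgfa was 13.6% in KO and 20.7% in control libraries. Lengths of the longest transcript, in place of all exons, gave Areg 49.1% in KO and 33.1% in control, and then put Hbegf above Areg in the 3 control libraries.

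**Figure D4:**
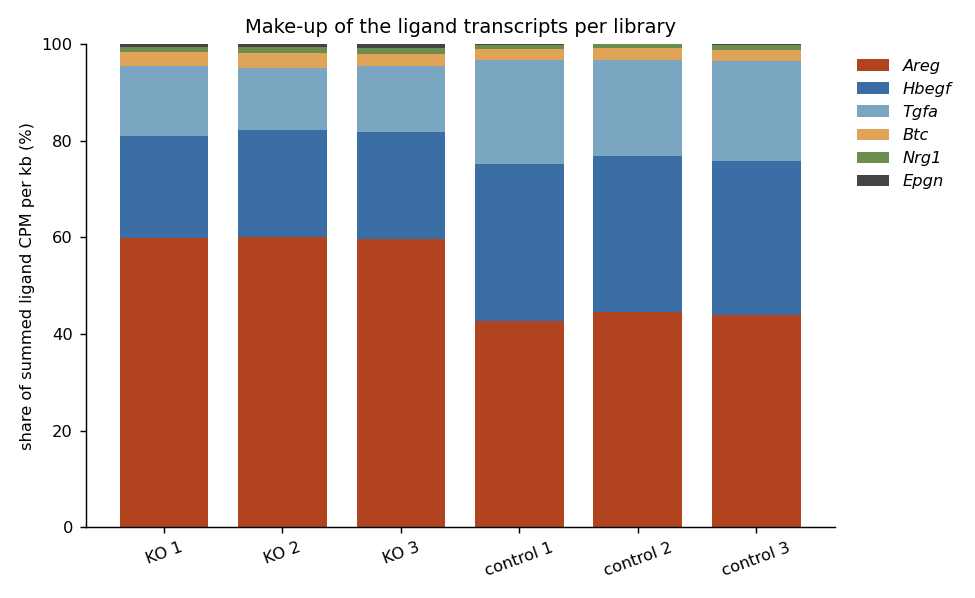
Share of each ligand in the summed ligand level (CPM per kb of exon, vertical axis, percent) in the 3 KO and 3 control libraries. Areg takes 59.6% to 60.0% in KO libraries and 42.7% to 44.4% in control libraries, while the shares of Hbegf and Tgfa are smaller in KO.

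The direction of the ligand total depended on the scale. In CPM the ligands summed to 336 to 345 in KO and 376 to 384 in control libraries. Per kilobase of exon they summed to 115 to 119 in KO and 103 to 107 CPM per kb in control libraries. With longest transcript lengths the sums overlapped, at 140 to 145 in KO and 136 to 141 CPM per kb in control libraries. The receptors summed to 20.2 to 21.4 CPM per kb of exon in KO and 22.1 to 22.8 in control libraries.

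Genes that release the ligands moved both ways. Of 14 tested genes of ligand export and shedding, 5 were called higher in KO and 4 lower (median 0.05). Adam17, the main sheddase of Areg, Hbegf and Tgfa, was lower at 84.4, 81.6 and 82.1 CPM in KO, against 115, 110 and 112 CPM in control libraries (-0.44 on the log2 scale, SE 0.045, edgeR adjusted p = 1.06e-10). Of its partners in transport to the cell surface, Rhbdf1 was called lower (-0.13), while Rhbdf2 (-0.07) and Frmd8 (0.02) did not pass. Adam12, another protease that can shed Hbegf, was higher at 34.3, 33.9 and 31.1 CPM in KO, against 16.2, 15.5 and 18.8 CPM in control libraries (0.98, SE 0.083, edgeR adjusted p = 9.75e-13). Adam10, which sheds Btc, rose by 0.29 and Adam15 by 0.46. Cd9, a tetraspanin that binds the Hbegf precursor, was lower at 482 ± 5.93 CPM in KO and 600 ± 18.4 CPM in control (-0.32, edgeR adjusted p = 4.00e-10).

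Inhibitors of the receptors moved both ways as well, with Errfi1 and Lrig1 lower in KO. Of 17 tested genes of receptor inhibition and turnover, 6 were called higher and 5 lower (median 0.06). Without KO replicate 1, 3 were called higher. Errfi1, whose product Mig-6 binds the ErbB kinase domain and blocks it, was at 250, 260 and 253 CPM in KO and 464, 476 and 460 CPM in control libraries. On the log2 scale it differed by -0.87 (edgeR adjusted p = 2.39e-22, SE 0.035, 95% interval -0.95 to -0.80). Lrig1, a membrane protein that promotes ErbB degradation, was at 173, 175 and 178 CPM in KO and 236, 239 and 241 CPM in control libraries (-0.44, SE 0.037, edgeR adjusted p = 1.23e-12). The groups were far apart for both. The ubiquitin ligases split, with Cbl (0.23) and Cblb (0.27) higher and the epithelial Cblc lower (-0.52, edgeR adjusted p = 1.78e-05), and the phosphatase gene Ptprk rose by 0.30 (edgeR adjusted p = 8.32e-07). Rnf41, the ligase that turns over Erbb3, rose by 0.17 (edgeR adjusted p = 0.0235).

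Of 24 tested adaptors and effectors, 6 were called higher and 7 lower (median 0.01), and 11 did not pass, Grb2 (0.03), Sos1 (0.09) and Gab1 (-0.01) among them. Grb7, an adaptor that binds Erbb2, was at 29.5, 30.7 and 31.1 CPM in KO and 57.1, 51.2 and 53.5 CPM in control libraries (-0.82, SE 0.063, edgeR adjusted p = 6.34e-14). Eps8 was lower (-0.36) and so was Shc1 (-0.27), whereas the phosphatase gene Ptpn11, which encodes Shp2, was higher (0.33, edgeR adjusted p = 1.17e-09). Of 16 genes of receptor endocytosis and sorting, 5 were called higher and 2 lower (median 0.0067), with 1 lower when control replicate 2 was left out. Epn2, an endocytic adaptor of the epsin family, stood apart at 131, 124 and 131 CPM in KO and 305, 297 and 309 CPM in control libraries (-1.24, SE 0.039, edgeR adjusted p = 1.17e-25). Ap2m1, a subunit of the clathrin adaptor AP-2, rose by 0.39 and Stam by 0.23. The shares called in these 4 lists were 64.3%, 64.7%, 54.2% and 43.8%, in the order given, beside 54.6% of all tested genes. Against a minimum fold change of 1.5, Adam12, Errfi1, Grb7 and Epn2 kept their calls and the rest of these lists lost theirs.

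**Figure D5:**
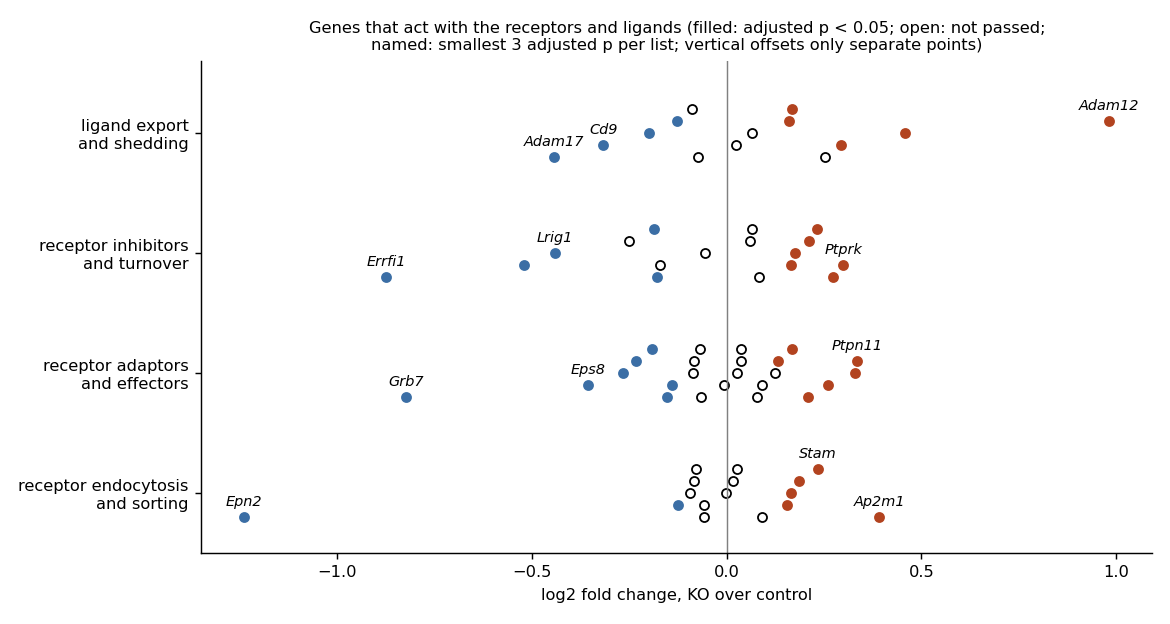
Log2 fold change, KO over control (horizontal axis), of each tested gene in 4 lists of genes that act with the receptors and ligands (rows); filled points were called, open points were not. Epn2 (-1.24), Errfi1 (-0.87) and Grb7 (-0.82) lie farthest to the left, Adam12 (0.98) farthest to the right, and each list has called genes on both sides of 0.

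Areg and Hbegf are also known to be induced rapidly by growth factors and stress, as are the immediate early genes, which respond to warm tissue dissociation. The gels had been digested with collagenase at 300 U/ml for 10 and then 5 min. All 19 tested genes of the immediate early and dissociation list were called, 10 higher and 9 lower in KO, beside 54.6% of all tested genes called. Some settings called fewer, with 7 higher and 9 lower under upper quartile scaling and 8 each way under the DESeq2 test. Against a minimum fold change of 1.5, 1 was called higher and 4 lower. The list summed to 5622 to 6038 CPM in KO and 6285 to 6623 CPM in control libraries. Egr1 (-1.31) and Ier3 (-0.87) were lower, and Atf3 (0.84) was higher. The part of this response in the ligand values was not tested.

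The genes most like Areg over the 6 libraries were found from log2 CPM centred on each gene's mean, among 10063 tested genes of at least 5 CPM. The closest were Tpm1, an actin filament gene (root mean square difference 0.021), Cobll1 (0.021) and the nucleoside transporter gene Slc29a1 (0.022), which rose by 0.57, 0.59 and 0.59. The closest to Erbb2 were Aldh16a1 (0.015), Lin7c (0.016) and Sestd1 (0.019), with log2 fold changes of -0.07, -0.08 and -0.07 that did not pass the test. Fold changes near those of Areg and Erbb2 follow from choosing genes by this likeness and are no separate result.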

How the data were processed

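The authors deposited whole-number read counts per gene symbol, 1 column per library and not normalized. The submitters' processing notes name FastQC 0.11.9, STAR 2.7.9a, featureCounts and R 4.1.1, and the builds hg38 and mm10 without a role. Per the labels' protocols the kit was TruSeq Stranded mRNA. The sources used here do not give the annotation, the strand setting or the rule for multi-mapped reads. Columns were assigned by library name, and 0 were left over.

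From these counts, low genes were removed with filterByExpr (minimum count 10, total 15), libraries were scaled with TMM, and KO was compared with control by edgeR 4.0.16 (R 4.3.3; quasi-likelihood F-test, group as the only term, Benjamini-Hochberg adjusted p below 0.05 over 12158 genes). The log2 fold changes computed here are KO over control with a prior count of 0.125. SEs are log2 fold change over square root of F, and intervals are at 95%. CPM use the TMM-scaled totals, and CPM per kb the union of exons in GENCODE M21. Of the symbols, 98.4% occur in that annotation. The test was run on simulated data with 50 of 12158 genes changed at each fold change. It recovered 54% of them at 1.25-fold and 90% at 1.5-fold, and 2.89% of its calls were false. Far fewer genes were changed there than were called in the data, so false calls at such a share were not checked. Intervals of log2 fold changes come from the edgeR fit and include the spread between libraries, while the floor for 0 counts and the interval of a count ratio cover counting error only.

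The labels do not say that replicates came from separate cultures, so the spread behind each p-value may be technical. Replicates of a group differed by more than counting noise (3.83 to 4.83 chi-square units per degree of freedom in KO, 2.29 to 2.68 in control), and all were kept. The genes and lists were chosen with earlier results of these data known. Named list genes are those with the smallest 3 adjusted p among the called, and further ones were chosen after their values were seen. Alternatives were DESeq2 1.42.0, limma-voom (limma 3.58.1), other scalings and filters, a minimum fold change, a replicate block and leaving out each library. One marker gene of the lists is not reported here.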

Additional observations from a re-analysis of the deposited data

How the results depend on the processing

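The 3 calls of lower and 5 of higher family genes held under DESeq2 size factors, upper quartile scaling, no low-count filter, the DESeq2 and limma-voom tests, and without each library in turn. A filter at a mean of 5 CPM left Egfr and Epgn out, so 3 were called higher. Against a minimum fold change of 1.5, edgeR called 907 genes in place of 6639, 2 family genes higher and 0 lower (0 also at an unadjusted p below 0.05, against 3 under the DESeq2 test of any change). Leaving out each library gave 5922 to 6276 called genes. Longest transcript lengths moved the Areg share to 49.1% in KO and 33.1% in control libraries. No family gene, and none of the genes with the smallest 3 adjusted p of a list, changed sign under these settings. Same-numbered libraries did not deviate together (correlations of -0.064 to -0.0032 over genes, and 0 of 3 KO libraries were most like their own number), so the numbers were not taken as pairs. With the replicate block 6443 genes were called, and the calls of family genes held. Low counts limit Egfr, Epgn, Egf and Nrg2.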

Other observations

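Erbb2 has close neighbours on chromosome 11 that were looked at after their values were seen. Mien1, on the opposite strand, shares 9 exon bases with Erbb2 and stood at 34.2 ± 2.49 CPM in KO and 30.1 ± 1.37 CPM in control libraries (SD, n = 3 each, log2 fold change 0.18, SE 0.071, edgeR adjusted p = 0.0286). Grb7 begins 8.68 kb after the end of Erbb2 and stood at 30.4 ± 0.860 CPM in KO and 53.9 ± 3.01 CPM in control libraries (log2 fold change -0.82). Both lie at the end of Erbb2, with Mien1 the nearer, and genes before the start of Erbb2 were not looked at. Mien1 was higher and Grb7 lower in KO, while Erbb2 lay between -0.15 and 0.04 by its 95% interval.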
